A study of Rattus norvegicus with 6 samples.

Results

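The genes of the rat major histocompatibility complex (MHC), which is named RT1 and lies on chromosome 20, were examined together with the genes that load peptides onto its class I molecules. The members were chosen by name: every gene row whose symbol begins with RT1-, and the rows of B2m, Tap1, Tap2, Tapbp, Nlrc5, Erap1, Calr, Canx and Pdia3. The rule gave 44 of the 20609 gene rows, of which 34 were RT1 rows and 10 were rows of the 9 named genes, since Tap2 had 2 rows. The libraries were poly-A RNA-seq libraries of PC12, a cell line from a rat pheochromocytoma, which is a tumor of the adrenal medulla. PC12 cells transfected with a control plasmid gave 3 libraries, and PC12 cells transfected with a plasmid for EGFP-tagged PCBP-1, an RNA binding protein, gave the 3 PCBP1-OE libraries. All libraries came from this 1 cell line, and the sources used here do not say whether the control plasmid encodes EGFP. The study calls the libraries of a group biological replicates, but nothing in the sources used here says that they came from separate cultures, so p-values measure the spread between these libraries, which may be technical. The PCBP-1 transcript itself was not analysed here.

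Class I molecules consist of a heavy chain and beta-2 microglobulin, and they display peptides of the cell's own proteins on nearly all nucleated cells. The heavy chain folds in the endoplasmic reticulum with calnexin, calreticulin and the disulfide isomerase encoded by Pdia3. The TAP transporter brings peptides in from the cytosol, Erap1 trims them and tapasin (Tapbp) holds the heavy chain at the transporter. In the rat, the RT1-A genes encode the classical class Ia heavy chains, while the many genes of the RT1-CE, -M, -N, -S, -O and -T24 series are nonclassical. Class II molecules, encoded by the RT1-B and RT1-D genes, present peptides from endosomes and are typical of leukocytes that present antigen. Interferons are known to raise class I genes through IRF factors and Nlrc5, the transactivator of class I genes, while Ciita is that of class II genes.

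The library totals were 19730209 to 22315623 counts on genes. Values below are either raw counts of reads on a gene or CPM, a gene's counts scaled to the same fixed total in every library, after TMM scaling of the libraries, and neither is divided by gene length, so levels are not compared between genes. The label PC12 was checked against chromaffin markers. Th had 141 to 185 counts and Slc18a1 17 to 28, and Ddc, Dbh, Chga and Chgb had at most 9 counts in any library. The near absence of Ddc, Dbh, Chga and Chgb goes against the label, and PC12 is used here as the name the labels give. The glial genes Sox10 and S100b had 7160 to 9007 and 4143 to 5339 counts. The chromaffin list summed to 8.62 to 9.97 CPM in controls and 9.03 to 9.90 CPM in PCBP1-OE, and the glial and adrenocortical list to 616 to 660 CPM and 583 to 604 CPM. None of the 2 and 4 tested genes of these lists passed the edgeR test described below (0 and 2 had an unadjusted p under 0.05), and neither did any of the 3 tested genes of the fibroblast and endothelial list (0 under 0.05, 32.8 to 38.9 CPM and 36.5 to 40.7 CPM). Of all 12624 genes tested, 3588 had an unadjusted p under 0.05 in that test. In these bulk samples, fewer cells of a type and less RNA per cell cannot be told apart.

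Promoter sequences were matched for 37 of the 43 member symbols among RefSeq promoters (assembly GRCr8), each of them 250 bases before and 50 bases after a gene's start. These stretches are shown because class I promoters are known to carry a kappa-B site followed by an interferon-stimulated response element, and the comparison asks whether the genes behind them differed between the groups. Capitals mark matches to GGGATTCCC (a kappa-B core) and to GAAANNGAA or GAANNGAAA (both orders of the interferon element core, the latter added after the promoters had been seen), on either strand. Each stretch has 30 bases in the direction of transcription. The stretches shown are a selection from the promoters with a match. RT1-CE3, which had a match to GAANNGAAA, is not among them. The first 5 are from chr20:4907084-4907113 on the plus strand, chr20:4872698-4872727 on the plus strand, and chr20:3509320-3509349, chr20:3385143-3385172 and chr20:3484227-3484256 on the minus strand.
RT1-A1: GGGATTCCCcatctccccagTTTCACTTCt
RT1-A2: GGGATTCCCcatcgcccagTTTCACTTCtg
RT1-CE4: GGGATTCCCcaacttcccagTTTCATTTCt
RT1-CE10: GGGATTCCCcatctcccagTTTCACTTCtg
RT1-CE5: gagattccccatctcccctgTTTCACTTCt

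The next 4 are from chr20:2675407-2675436 on the plus strand, chr20:4668644-4668673 and chr20:4967884-4967913 on the minus strand, and chr3:129549170-129549199 on the plus strand.
RT1-S3: tcctgctgctTTCTCTTTCataaagacaca
Tap1: ggtggctgctTTCGGTTTCttcttcctcta
Tapbp: gcctttgaggGAAAATGAAAGTGAAAGGAA
B2m: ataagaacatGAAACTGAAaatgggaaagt

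The kappa-B core was found in 6 of the 24 class I promoters in the table, against 0.365% of all 33469 promoters, and all 6 belong to class I genes with enough counts for a test. At least 1 of the interferon element cores, whose matches can overlap, was found in 12 of 24 class I promoters, in 4 of 6 loading gene promoters and in 0 of 7 class II promoters, against 16.8% of all promoters. The planned core, GAAANNGAA, was in 3 of 24 class I and 4 of 6 loading gene promoters, against 9.71% of all. GAANNGAAA was in 9 of 24 and 2 of 6, against 8.54% of all. For class I, the pooled count thus rests largely on a form added after these same promoters had been seen. ATTGG, the core of the CCAAT or Y box, was present in 17 of 24 class I and in 7 of 7 class II promoters, against 37.5% of all. TTCNNNGAA, the core of a gamma-activated site, was in 2 of 24 class I promoters, 0 of 7 class II promoters and 0 of 6 loading gene promoters, against 8.87% of all. TGACGTCA, the CRE core, was in 0 of 24 class I promoters and, among 7 class II promoters, in that of RT1-Ba alone, against 1.83% of all. Promoters of related class I genes are not independent of each other, and a match to these letters is a description of the sequence.

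Transcripts were detected from class I and from class II genes. The table holds only rows with at least 1 count in total, so that presence in it shows little, and detection was read from counts in all 6 libraries and from the filter on low counts used for testing. Of 27 class I heavy chain rows, 19 had a count in every library and 18 passed the filter. These were 3 of 3 class Ia rows, 10 of 14 rows whose description says class I with no letter, and 5 of 10 class Ib rows. The class was taken from the symbol in the 3 rows whose description does not give it. Rows of the nonclassical series are found under class Ib and under class I with no letter, so the class Ib count is not that of all nonclassical genes. Of 7 class II rows, 6 had a count in every library and 3 passed the filter. All 10 loading rows had counts in every library and 8 passed. In all, 29 of 44 member rows were tested and 15 were not.

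**Figure D1:**
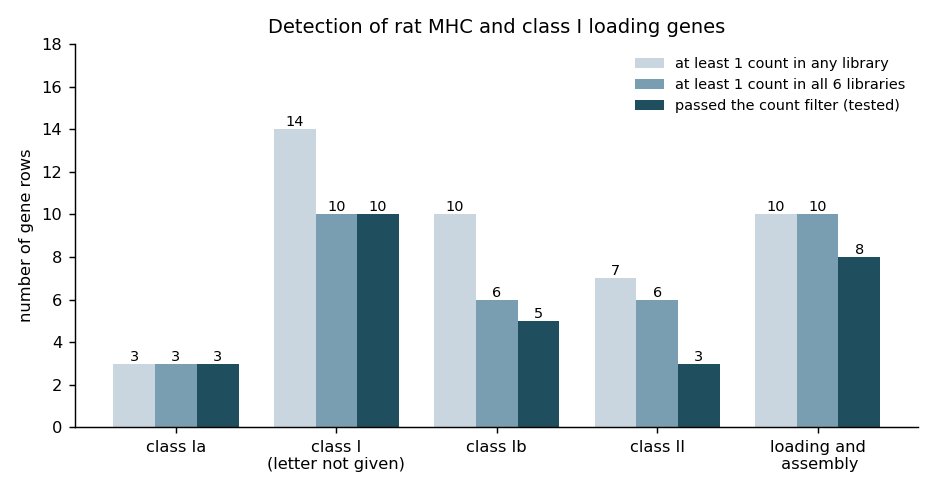
Number of member gene rows (vertical axis) by class, with bars for rows with at least 1 count in any library, in all 6 libraries, and rows that passed the filter on low counts. Class Ia was tested in full, while 5 of 10 rows classed as Ib and 3 of 7 class II rows passed. Nonclassical genes are also among the class I rows with no letter.

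The rows that were not tested had low counts, and the RT1-DM, RT1-DO and RT1-O series had no tested row. In class I, RT1-T24-2 had 5 to 11 counts per library. RT1-M6-1 had 0, 3 and 2 counts in controls and 0 in each PCBP1-OE library, where a count of 0 allows up to 3 counts, or 0.153 CPM at the lowest depth. RT1-M5 had 0, 1 and 0 counts in the control libraries against 2, 4 and 1 with PCBP1-OE. RT1-S2, RT1-O1, RT1-CE6, RT1-M1-2, RT1-M1-4 and RT1-M1-5 had at most 2 counts in any library. Among them, the 4 rows annotated as unprocessed pseudogenes (RT1-O1 and the RT1-M1 rows) together held 9 counts in the 6 libraries. In class II, RT1-Bb, the beta chain of RT1-B, had 10, 17 and 8 counts in the control libraries against 8, 7 and 4 with PCBP1-OE. RT1-DMa, a chain of the DM molecule that exchanges class II peptides, had 3, 4 and 8 counts in the control libraries and 2 in each PCBP1-OE library. RT1-DOa, the alpha chain of the DM modulator DO, had 7, 6 and 1 counts in the control libraries against 12, 8 and 8 with PCBP1-OE. RT1-DOb, its beta chain, had 0, 2 and 1 counts against 1, 4 and 4. The first pair of these 4 class II genes was thus lower on average with PCBP1-OE and the DO pair higher, all on few counts and with no test in this fit. The 2 rows of Tap2, the partner of Tap1 in the transporter, had 2 to 14 and 5 to 19 counts. Since both rows carry the same symbol, how reads were divided between them is uncertain.

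The comparison of PCBP1-OE with control asked which of these genes changed with PCBP-1 overexpression. Of the 29 tested members, 1 rose and 1 fell at an adjusted p of 0.05 or less (quasi-likelihood test of edgeR, Benjamini-Hochberg adjusted over the 12624 genes with enough counts). RT1-M2 (ENSRNOG00000049590, chromosome 20) was the gene that rose and Calr (ENSRNOG00000003029, chromosome 19) the one that fell. An unadjusted p under 0.05 in the same test was found for 5 of the 29 members, against 3588 of all 12624 genes. Over all genes tested, 562 (4.45%) were called higher and 631 (5.0%) lower, 9.45% in either direction, so that the members' share, 6.90%, was near the background. The median log2 fold change of the tested members was -0.055, against 0.0029 for all genes, with 11 members above 0 and 18 below. The groups did not overlap in 9 of 29 members (31.0%), 5 higher and 4 lower in PCBP1-OE, against 30.6% of all genes.

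**Figure D2:**
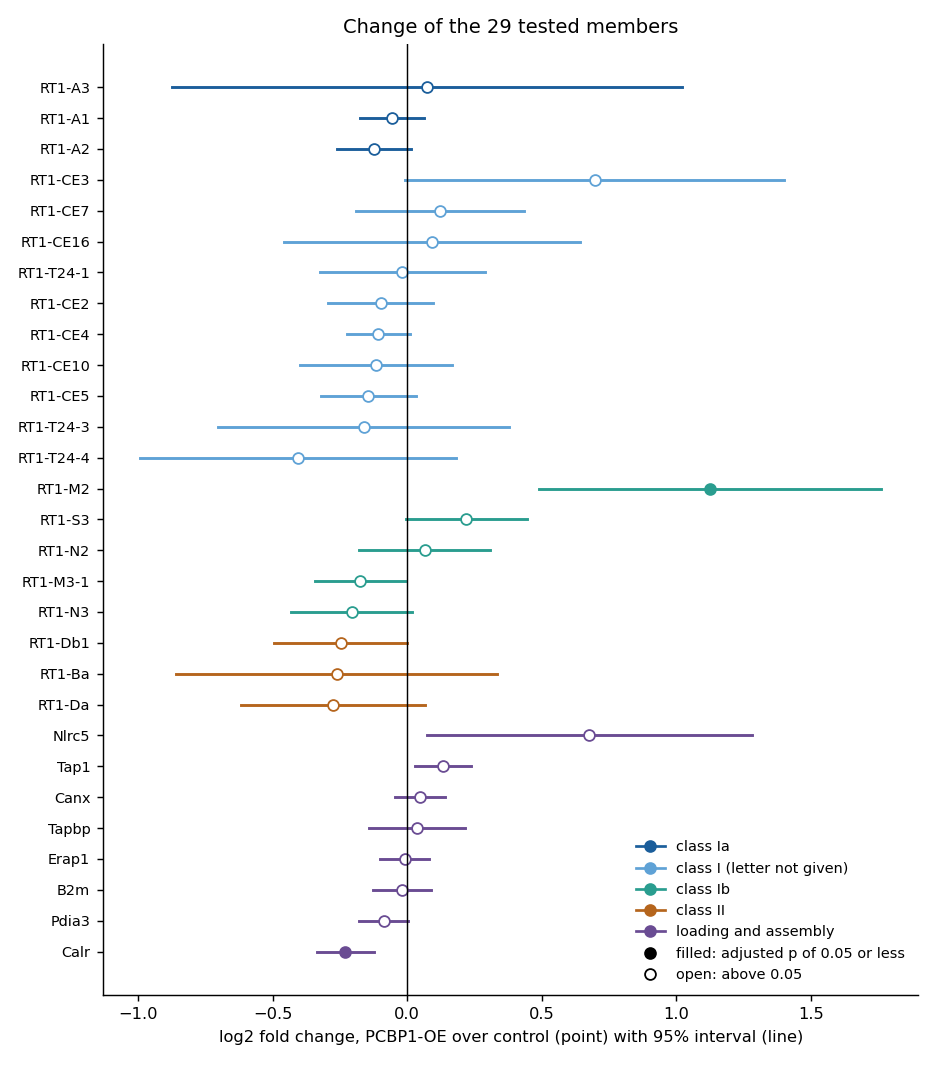
Log2 fold change of PCBP1-OE over control (horizontal axis) for the 29 tested members, with points for the fitted value, lines for the 95% interval and colors for the class. The filled points are RT1-M2 at 1.12 and Calr at -0.23, and the open points did not pass the test.

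None of the 3 classical heavy chain genes passed the edgeR test, and 0 had an unadjusted p under 0.05. RT1-A1 was at 50.5, 48.8 and 48.2 CPM in controls and 46.0, 49.6 and 46.4 CPM in PCBP1-OE. The groups overlapped, and the log2 fold change was -0.055 with a 95% interval of -0.17 to 0.064. RT1-A2 was at 93.4, 89.7 and 82.8 CPM in controls and 75.9, 89.4 and 78.8 CPM in PCBP1-OE. Its groups also overlapped, with PCBP1-OE replicate 2 inside the control range, and its interval was -0.26 to 0.015 around -0.12. The upper bounds correspond to 1.05-fold for RT1-A1 and 1.01-fold for RT1-A2. RT1-A3 had 7 to 18 counts per library, and its interval of -0.87 to 1.02 resolves little. Summed over the class Ia rows, a sum chosen after the values were seen, the level was 138 ± 6.28 CPM in controls and 129 ± 8.87 CPM in PCBP1-OE (SD, n = 3 each).

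The RT1-CE genes, the largest nonclassical series among the tested rows, contributed 7 tested genes, of which 0 passed with edgeR or limma-voom and 0 had an unadjusted p under 0.05 with edgeR. DESeq2 called 0 as well and gave RT1-CE3 and RT1-CE16 no adjusted p. RT1-CE4 was at 57.2, 60.2 and 55.1 CPM in controls and 51.9, 52.7 and 55.4 CPM in PCBP1-OE, with a log2 fold change of -0.11 (interval -0.22 to 0.0090). RT1-CE5 was at 32.1, 27.9 and 30.2 CPM in controls and 28.3, 28.6 and 24.6 CPM in PCBP1-OE, with a log2 fold change of -0.14 (interval -0.32 to 0.032). RT1-CE2, at 19.4 to 24.1 CPM over all libraries, had a log2 fold change of -0.099. In each of these genes at least 1 PCBP1-OE library lay inside the control range. RT1-CE10 was at 7.80 to 10.2 CPM and had -0.12, RT1-CE7 was at 6.83 to 9.62 CPM and had 0.12, and RT1-CE16, with 24 to 33 counts per library, had 0.092. RT1-CE3 had the largest fitted change of the series, on few counts, and an interval that holds the values of RT1-CE7 and RT1-CE16. It had 10, 14 and 11 counts in the control libraries against 21, 19 and 16 with PCBP1-OE, so that the groups did not overlap, and its log2 fold change was 0.70 (interval -0.0083 to 1.40, adjusted p = 0.181, same edgeR test). The summed RT1-CE level was 130, 132 and 127 CPM in controls and 121, 124 and 120 CPM in PCBP1-OE. These sums did not overlap, also under the other scalings, and their ratio was 0.937; the sum of this series was chosen after the values were seen and has no test.

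Many rat class I heavy chain genes are known to be close copies of each other, to an extent that was not measured here, and how reads that fit several of them were assigned is known only as far as the authors counted uniquely mapped reads. The values of single rows are therefore uncertain, and the sum over all 27 class I heavy chain rows was computed beside them. It was 368, 374 and 350 CPM in controls and 333, 360 and 334 CPM in PCBP1-OE. PCBP1-OE replicate 2 lay above control replicate 3, so the groups overlapped, and the ratio of PCBP1-OE to control was 0.941. On the log2 scale the difference of -0.088 compares with a spread between replicates of 0.057.

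**Figure D3:**
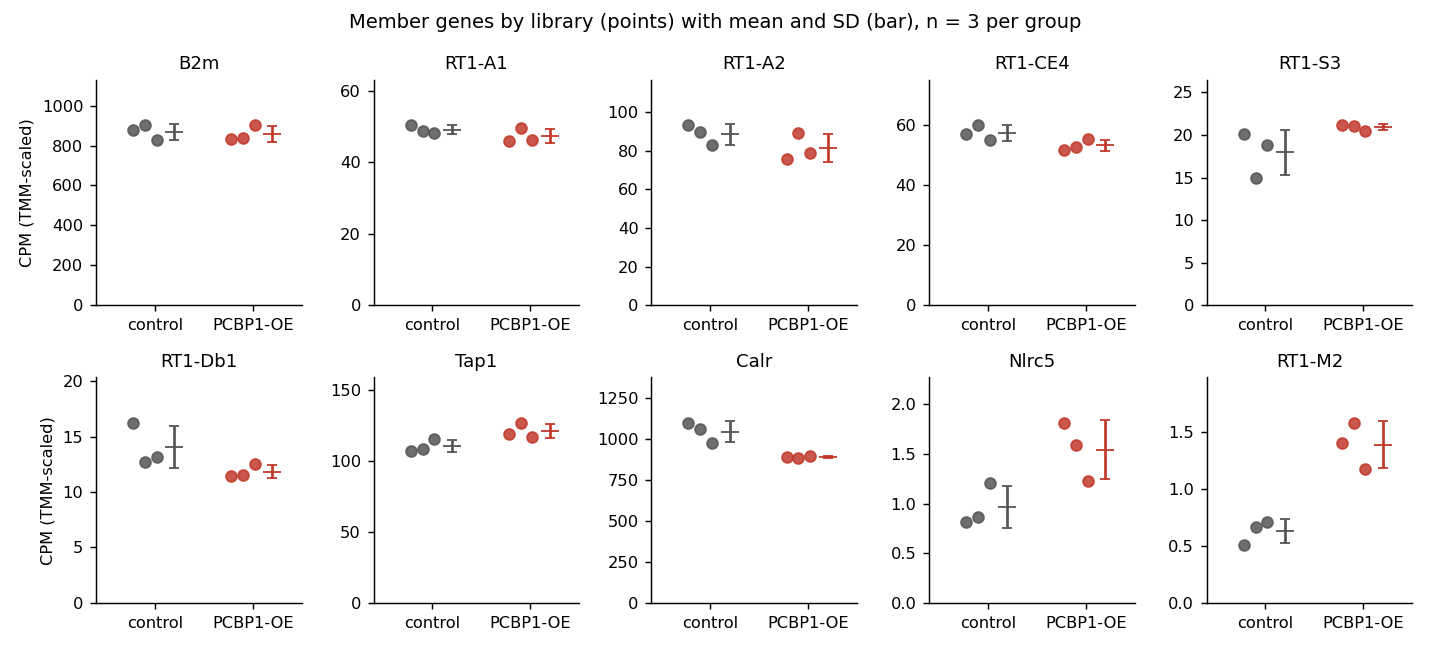
Level in each library (points, CPM after TMM scaling) of 10 members, with the group mean and SD beside them (n = 3 per group, each vertical axis from 0). B2m, RT1-A1, RT1-A2 and RT1-CE4 overlap between the groups, while all 3 PCBP1-OE libraries lie below the controls for Calr and above them for RT1-M2.

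Among the nonclassical genes of the other series, RT1-M2, a class Ib gene of the M region, rose. It had 10, 14 and 16 counts in the control libraries against 31, 32 and 23 with PCBP1-OE, or 0.510, 0.671 and 0.714 CPM against 1.41, 1.59 and 1.17 CPM. Every PCBP1-OE library was above every control. The log2 fold change was 1.12 (standard error, SE, 0.29, adjusted p = 0.0354 by the same edgeR test), a 2.18-fold increase with a 95% interval of 1.40 to 3.39. The call rests on few reads. The log2 fold change stayed between 1.01 and 1.24 when each library was left out in turn, but the call was lost when any library other than control replicate 3 was left out: the adjusted p was 0.121 or 0.128 with control replicate 1 or 2 omitted, and 0.127, 0.133 or 0.0520 with PCBP1-OE replicate 1, 2 or 3 omitted, while it was 0.0226 with control replicate 3 omitted.

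The neighbouring members of RT1-M2 on chromosome 20 did not pass the test. RT1-M3-1, the counterpart of mouse H2-M3, which presents formylated peptides, was at 24.4, 27.7 and 25.1 CPM in controls and 23.1, 22.6 and 22.8 CPM in PCBP1-OE. All PCBP1-OE libraries were below all controls, with a log2 fold change of -0.18 (SE 0.078, adjusted p = 0.157, same edgeR test). RT1-S3, the counterpart of mouse H2-T23, whose product is a ligand of natural killer cell receptors, was at 20.1, 15 and 18.8 CPM in controls and 21.2, 21.0 and 20.5 CPM in PCBP1-OE. Here all PCBP1-OE libraries were above all controls, with a log2 fold change of 0.22 (interval -0.0064 to 0.44, adjusted p = 0.188). RT1-N2 was at 9.32 to 11.4 CPM over all libraries, with a log2 fold change of 0.065. RT1-N3 was at 20.6, 21.8 and 17.1 CPM in controls and 16.0, 18.2 and 17.5 CPM in PCBP1-OE, with a log2 fold change of -0.21 (adjusted p = 0.213), and it passed only without control replicate 3 (adjusted p = 0.0265, edgeR).

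None of the 3 tested RT1-T24 genes, relatives of mouse H2-T24, passed the edgeR test, and 0 had an unadjusted p under 0.05. RT1-T24-4 had 130, 336 and 158 counts in the control libraries against 161, 173 and 129 with PCBP1-OE. Control replicate 2 alone was high, and the other 5 libraries lay close together. The log2 fold change was -0.41 (interval -0.99 to 0.18) with all libraries and 0.14 without control replicate 2. With all libraries, the exact test of edgeR with a common dispersion and the fit with no filter called it lower (adjusted p = 0.00855 and 0.0390). RT1-T24-1 was at 6.85 to 8.62 CPM with a log2 fold change of -0.018, and RT1-T24-3 had 46 to 87 counts per library with -0.16 (interval -0.70 to 0.38).

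**Figure D4:**
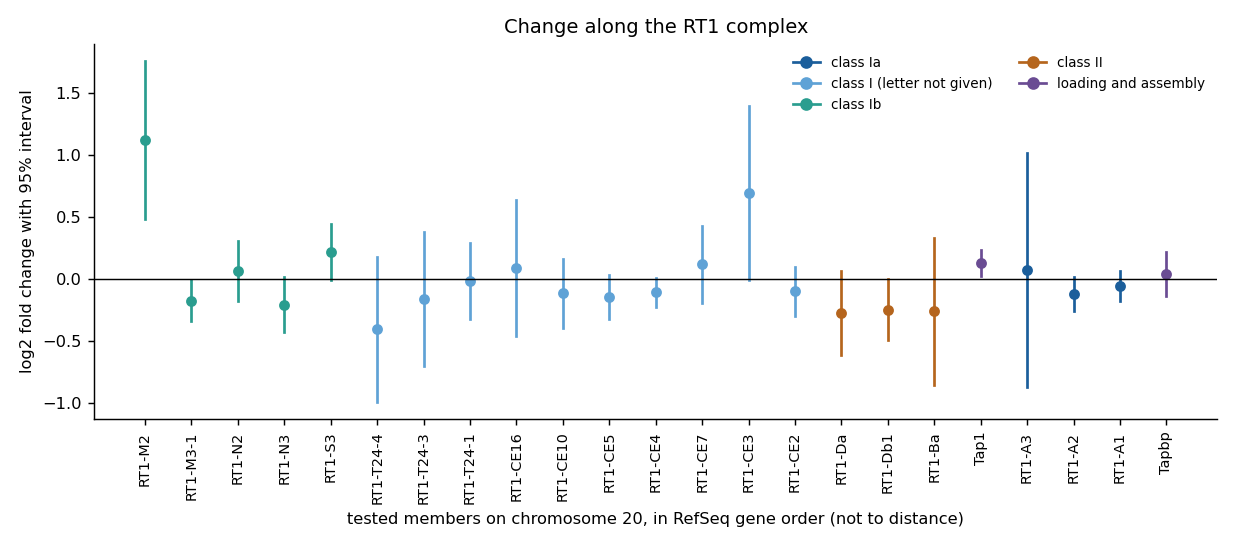
Log2 fold change with its 95% interval (vertical axis) for the 23 tested members on chromosome 20, in the order of the genes in RefSeq and not to distance. RT1-M2 at 1.12 stands at the start of the row, next to RT1-M3-1 at -0.18, and the 3 class II genes lie between -0.28 and -0.25 with all libraries.

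Class II transcripts were present in control and PCBP1-OE cells. RT1-Da, the alpha chain of the RT1-D molecule, was at 7.60, 6.37 and 5.26 CPM in controls and 5.04, 5.25 and 5.57 CPM in PCBP1-OE, with a log2 fold change of -0.28 (interval -0.62 to 0.066). RT1-Db1, a beta chain of RT1-D, was at 16.3, 12.7 and 13.2 CPM in controls and 11.4, 11.6 and 12.6 CPM in PCBP1-OE. Its groups did not overlap, and its log2 fold change was -0.25 (SE 0.11, adjusted p = 0.176 by the same edgeR test). RT1-Ba, the alpha chain of RT1-B, had 30, 52 and 37 counts in the control libraries against 28, 28 and 41 with PCBP1-OE, with a log2 fold change of -0.26 (interval -0.86 to 0.33). None of the 3 tested class II genes passed with edgeR or limma-voom, and 0 had an unadjusted p under 0.05 with edgeR. DESeq2 called 0 as well and gave RT1-Ba no adjusted p. Leaving out 1 library moved these values: RT1-Da and RT1-Db1 were at -0.13 without control replicate 1, and RT1-Ba was at -0.0095 without control replicate 2. The sum over all 7 class II rows was 26.4, 23.0 and 20.9 CPM in controls and 18.8, 19.2 and 21.1 CPM in PCBP1-OE, with PCBP1-OE replicate 3 above control replicate 3. Ciita had 15, 26 and 16 counts in the control libraries against 28, 18 and 14 with PCBP1-OE (log2 fold change 0.091, interval -0.64 to 0.82). Cd74, the invariant chain of class II molecules, had 78, 89 and 110 counts in the control libraries against 76, 63 and 86 with PCBP1-OE (log2 fold change -0.27, interval -0.65 to 0.12). Of the list of class II pathway genes outside RT1, 7 were tested and 0 passed with edgeR (0 at an unadjusted p under 0.05), with a median log2 fold change of -0.068.

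Leukocyte markers were read beside the class II genes. Of 14 symbols, 12 were found, and 7 had at most 5 counts in every library. Ptprc, which marks leukocytes, had 0 to 3 counts, Laptm5 0 to 3 and Cd53 0 to 1. The list summed to 44.7 to 51.8 CPM in controls and 39.4 to 45.0 CPM in PCBP1-OE, of which most were counts of Cd14, at 698 to 887 per library. The other 3 tested markers were Cd68 with 56 to 81 counts, Cd3e with 52 to 79 and Lyz2 with 14 to 30. None of its 4 tested genes passed the edgeR test, and 1 had an unadjusted p under 0.05. The part of other cells in the class II counts was not tested.

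Of the loading and assembly genes, Calr fell. Calr, which encodes calreticulin, a chaperone that also binds calcium in the endoplasmic reticulum, was at 1100, 1059 and 973 CPM in controls and 889, 884 and 898 CPM in PCBP1-OE. All 3 PCBP1-OE libraries were below all controls, and they differed little from each other. The log2 fold change was -0.23 (SE 0.049, adjusted p = 0.0178 by the same edgeR test), a ratio of 0.853 with a 95% interval of 0.793 to 0.918. Omitting control replicate 1 or 2 ended the call (adjusted p = 0.0601 or 0.0922), as did omitting PCBP1-OE replicate 1 or 2 (0.0719 or 0.0837). The log2 fold change stayed between -0.28 and -0.18 when each library was left out in turn. Pdia3 was at 810, 815 and 775 CPM in controls and 745, 741 and 772 CPM in PCBP1-OE, again without overlap, with a log2 fold change of -0.088 (adjusted p = 0.196). Canx, the membrane-bound relative of calreticulin, was at 585 to 607 CPM in controls and 592 to 635 CPM in PCBP1-OE, with a log2 fold change of 0.048 (interval -0.046 to 0.14).

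B2m, which every class I molecule needs, was at 878, 902 and 826 CPM in controls and 831, 836 and 904 CPM in PCBP1-OE. The groups overlapped over nearly their whole range, and the log2 fold change was -0.019 (interval -0.13 to 0.088). Tap1, a subunit of the transporter, was at 107, 109 and 116 CPM in controls and 119, 127 and 117 CPM in PCBP1-OE. All PCBP1-OE libraries were above all controls, and the log2 fold change of 0.13 (interval 0.027 to 0.24) had an adjusted p of 0.0952 (edgeR), with a call only without control replicate 3 (0.0249). Tapbp was at 22.4, 25.7 and 25.3 CPM in controls and 24.1, 26.9 and 24.4 CPM in PCBP1-OE (log2 fold change 0.037). Erap1 was at 127 to 131 CPM in controls and 126 to 131 CPM in PCBP1-OE, with a log2 fold change of -0.010 (interval -0.10 to 0.082). Nlrc5 had 16, 18 and 27 counts in the control libraries against 40, 32 and 24 with PCBP1-OE. Scaled to CPM, its groups did not overlap, at 0.816, 0.862 and 1.20 against 1.81, 1.59 and 1.22, and the log2 fold change was 0.68 (SE 0.28) at an adjusted p of 0.132.

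**Figure D5:**
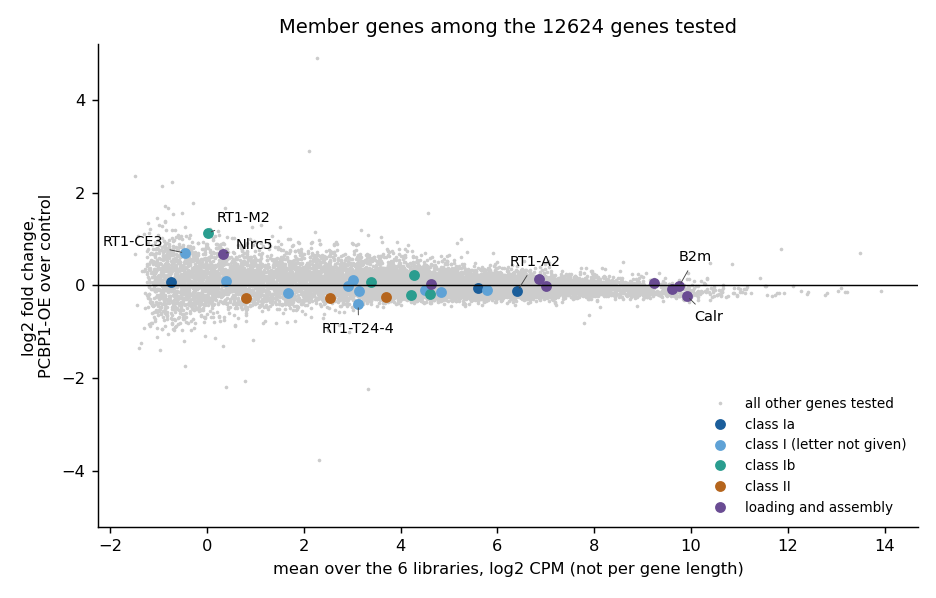
Log2 fold change (vertical axis) against the mean CPM over the 6 libraries on a log2 axis for all 12624 genes tested, with the members in color. RT1-M2, RT1-CE3 and Nlrc5 lie at the low-count end where all genes spread widely, and Calr and B2m at the high-count end.

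The other genes of the pathway were counted from lists. Irf9, a transcription factor of the interferon response, rose from 22.9, 23.0 and 25.2 CPM in controls to 29.3, 38.8 and 35.0 CPM in PCBP1-OE (log2 fold change 0.53, interval 0.33 to 0.74, adjusted p = 0.00977 by the same edgeR test). All 3 PCBP1-OE libraries were above all controls. Among 11 tested genes of peptide supply and trimming, 2 passed, both lower, and 5 had an unadjusted p under 0.05, with a list median of -0.077. Over all genes tested, 9.45% passed, 631 of 12624 (5.0%) passed as lower, and 3588 of 12624 had an unadjusted p under 0.05. The 2 genes of this list that passed were Psmb10 and Psme1. Psmb10, an immunoproteasome subunit, was at 61.4, 60.6 and 53.5 CPM against 50.8, 48.2 and 51.8 CPM (log2 fold change -0.22, adjusted p = 0.0448). Psme1, a subunit of the proteasome activator PA28, was at 183, 184 and 161 CPM against 148, 147 and 159 CPM (log2 fold change -0.22, adjusted p = 0.0350). Among 13 tested genes of class I assembly outside the named members, Sec61a1 alone passed and 7 had an unadjusted p under 0.05, with a list median of -0.12. Sec61a1, which encodes a subunit of the channel into the endoplasmic reticulum, was at 279, 277 and 270.5 CPM in controls and 245, 242 and 242 CPM in PCBP1-OE (log2 fold change -0.18, adjusted p = 0.0201). Of the class I-like genes outside RT1, 4 were tested and 0 passed with edgeR (0 at an unadjusted p under 0.05), with a median of -0.19.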

How the data were processed

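The authors mapped trimmed reads with TopHat2 against Rnor_6.0, a rat genome build, and deposited raw counts of uniquely mapped reads per gene for 6 libraries. The submitters' processing notes name GRCh38 as the build, although the gene identifiers are those of rat. The tool that counted the reads, and whether it used strand, is not given in the sources used here, and the labels and the methods name different stranded library kits. Groups and replicate numbers came from the titles. The members, gene lists and tests were chosen with earlier results of these data known.

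Of 20609 genes, 12624 were kept by filterByExpr of edgeR 4.0.16 (R 4.3.3) with a minimum count of 10 and a minimum total of 15, and fitted with TMM scaling, the quasi-likelihood test and Benjamini-Hochberg adjustment over all genes tested, with 0.05 as the threshold. Intervals of 95% are the log2 fold change and its standard error with t quantiles, unadjusted. Fitted log2 fold changes are on edgeR's scale with its prior count. The count of 3 set as the limit of a 0 covers counting error only. Other fits used no filter or a minimum of 1 CPM in 3 libraries, scaling by RLE or the upper quartile, DESeq2 1.42.0, limma-voom (limma 3.58.1), the exact test of edgeR (common or tagwise dispersions), a block for the replicate number, and omission of single libraries. Genes named in the text are every member with enough counts, low members with their counts, list genes that passed, and Ciita and Cd74. Some results of the list of transcription factors and of the marker lists are not reported here. Motifs were searched with Python 3.11.15 in RefSeq promoters of GRCr8, an assembly used for sequences, names and gene order only.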

Additional observations from a re-analysis of the deposited data

How the results depend on the processing

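With all 12624 genes, 1193 were called, against 2090 with no filter, 16 with the replicate number as a block and 48 to 2860 when each library was left out in turn. The number of members called higher, 1, was 0 with the block and 0 with DESeq2, which gave RT1-M2 no adjusted p, and 0 to 2 over the omissions. The number called lower, 1, was 2 with no filter and 2 with the exact test with a common dispersion, where RT1-T24-4 was added, 0 with the block and 0 to 2 over the omissions. Same-numbered libraries did not deviate together (r = -0.078, -0.048 and -0.036 across genes), and 0 of 3 controls correlated best with their own number, so the number is not a pairing. The median log2 fold change of the 29 tested members was -0.055. With at least 1 CPM in 3 libraries, 27 members were tested and the median was -0.085. RT1-A3 (0.072 in the main fit) and RT1-CE3 (0.70) were not among the 27. Over the omissions, 29 to 32 members were tested and the median lay between -0.090 and -0.0064. Members near 0 changed sign: under upper-quartile scaling RT1-T24-1 (0.0017), B2m (0.00084) and Erap1 (0.0098). Over the omissions RT1-A3 ranged from -0.30 to 0.39, Erap1 from -0.027 to 0.0065, Tapbp from -0.016 to 0.078, B2m from -0.055 to 0.014, RT1-T24-4 from -0.62 to 0.14, RT1-T24-1 from -0.13 to 0.084 and RT1-T24-3 from -0.52 to 0.049. The cause of these shifts was not tested. RT1-M2 stayed above 0 and Calr below 0 in all 15 alternatives, which refit the same libraries. RT1-M2 was called in 8 of the 14 alternatives that gave it an adjusted p, and Calr in 10 of 15. Depth limits the rows with few counts, such as RT1-A3 and RT1-CE3.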
